A study of Mus musculus with 10 samples.

Results

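The complement components and receptors described here are 8 genes, namely the 3 chains of C1q (C1qa, C1qb and C1qc), C3, properdin (Cfp), factor B (Cfb) and the receptors C3ar1 and C5ar1. They were taken from the arrays by gene symbol in the platform's probe-to-gene table, a step that used no measured values. The list of genes itself was chosen with earlier results of these data known. Of the 8 genes, 7 had a probe set under their own symbol alone, with 13 probe sets in all among the 45037 on the array. No probe set carried the symbol C3 alone, and C3 was not analysed here. A probe set is a group of short sequences on the array that together give 1 value for a transcript. All 13 exceeded the array median in 2 or more arrays and so passed the filter, which left 23805 probe sets for testing.

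The arrays measured spleen RNA from 10 female BALB/c mice, 1 array per mouse, all injected i.p. with cartilage proteoglycan (PG) in DDA adjuvant, which leads to PG-induced arthritis (PGIA) in susceptible animals. The 2 old arthritic mice were both labelled 9 months of age, the 2 old non-arthritic mice 7 and 5 months, the 2 young arthritic mice 5 and 4 months, and the 4 young non-arthritic mice 3, 3, 2 and 1 months. Every group received PG, so no spleen was from an untreated animal, and the mice share 1 strain and 1 sex. In each age group the arthritic mice were all older than the non-arthritic ones, so arthritis and age cannot be told apart there, and a second fit with a term for age in months set arthritic against non-arthritic mice at equal age. Whether these ages refer to the start of immunization or to sacrifice is not stated in the labels, so equal age and a slope per month refer to the labelled age.

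Complement is a cascade of plasma proteins that marks immune complexes and particles for removal and calls in leukocytes. C1q, assembled from its 3 chains, binds antibody in immune complexes and opens the classical pathway. C3 is the protein on which all pathways meet, and factor B and properdin form and stabilize the enzyme of the alternative pathway that cleaves it. The small fragments C3a and C5a act through the receptors C3ar1 and C5ar1 on myeloid cells. Most complement proteins in plasma come from the liver, while C1q is made largely by macrophages and dendritic cells, which the spleen holds in large numbers.

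The genes of the C1q chains lie next to each other, and the sequences at the start of C1qb and C1qc are shown because the C1q chains are compared over the mice below. In the RefSeq annotation of GRCm38.p6, C1qb (chr4:136880126-136886200), C1qc (chr4:136889801-136892936) and C1qa (chr4:136895916-136898844) together span 18719 bases of chromosome 4, with 3 genes in the span. Each RefSeq promoter window holds 250 bases before and 50 bases after a transcript start, here on the minus strand, 5′ to 3′. The capitals mark the reverse complement of GAGGAAG, the purine box bound by the myeloid factor PU.1.
C1qb, chr4:136886151-136886450: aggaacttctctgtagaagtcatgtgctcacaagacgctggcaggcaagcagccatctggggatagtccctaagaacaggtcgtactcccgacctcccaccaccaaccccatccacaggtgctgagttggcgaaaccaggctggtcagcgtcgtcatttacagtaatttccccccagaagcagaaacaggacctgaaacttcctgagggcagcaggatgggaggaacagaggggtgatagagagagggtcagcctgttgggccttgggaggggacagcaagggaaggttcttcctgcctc
C1qc, chr4:136892865-136893164: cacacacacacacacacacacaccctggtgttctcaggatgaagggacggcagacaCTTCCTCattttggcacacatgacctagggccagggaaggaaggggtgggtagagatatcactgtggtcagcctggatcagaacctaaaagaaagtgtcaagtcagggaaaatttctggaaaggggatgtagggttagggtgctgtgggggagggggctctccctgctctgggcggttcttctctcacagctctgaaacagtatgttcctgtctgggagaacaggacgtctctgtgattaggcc
The window of C1qc held this box once, on the opposite strand at -194 from the transcript start, and that of C1qb did not hold it on either strand. Among all 32851 promoter windows, 13.6% held the box. The core of the interferon response element, GAAANNGAA, was present in the window of C5ar1 at -66 on the opposite strand and in 8.56% of all windows. The PU.1 box was not found in the windows of C3, Cfp, C3ar1 or C5ar1. Neither GGGNNTTCC of NF-kB (5.82% of all windows) nor TTGCGCAA, the palindrome of C/EBP factors (0.183%), was found in the windows of C1qb, C1qc, C3, Cfp, C3ar1 or C5ar1. No window held more than 1 match, so no matches overlapped.

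The median signal of an array ran from 6.88 to 6.96 (log2), and any pair of arrays correlated at 0.981 to 0.997. Of the marker lists for cell types, 15 of 15 macrophage and 14 of 15 neutrophil markers were kept by the filter. So were 7 of 8 B cell and 8 of 8 T cell markers. The neutrophil and B cell markers not kept had no probe set under their own symbol alone. The filter also kept 8 of 8 stroma and 6 of 6 mesothelium markers, so being kept does not identify the tissue as spleen. All values below are robust multi-array average (RMA) signals on the log2 scale, and no result below compares the levels of different probe sets. In a piece of whole spleen, fewer cells of a type and less RNA per cell cannot be told apart.

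**Figure D1:**
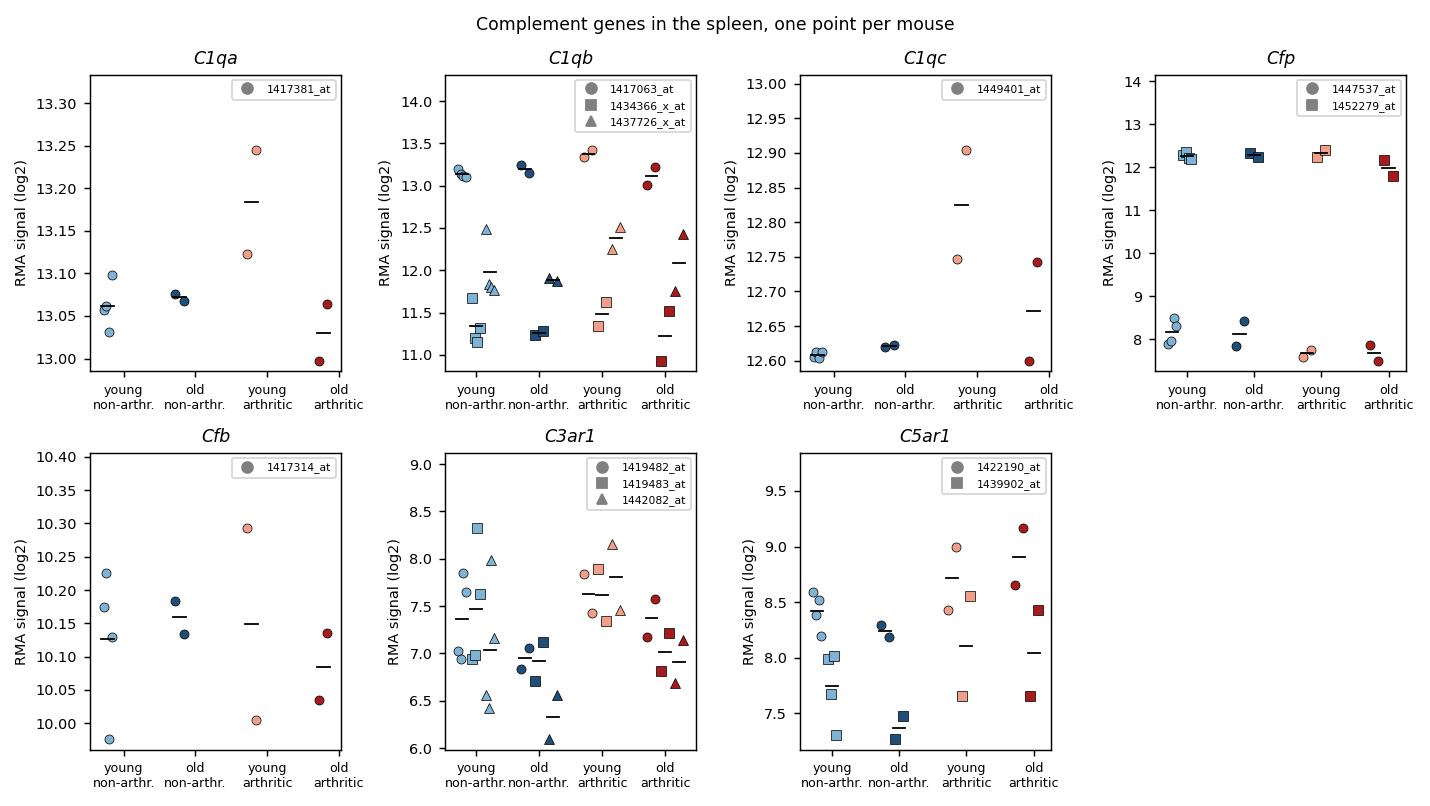
RMA signal (y-axis, log2) of the 13 complement probe sets in each of 10 mice, by group (x-axis), with 1 panel per gene, 1 symbol shape per probe set and a short black line at the group mean. The y-axes differ between panels. C1qc lies at 12.60 to 12.62 in all non-arthritic mice and reaches 12.90 in a young arthritic mouse, while the C3ar1 probe sets spread widely among the 4 young non-arthritic mice.

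How far the genes varied from mouse to mouse differed widely. The difference between the highest and the lowest of the 10 mice was 0.25 for C1qa, 0.30 for C1qc and 0.32 for Cfb on the log2 scale, against a median of 0.52 over all 23805 probe sets kept. These ranges stood at percentiles 4.8, 11.4 and 13.2 of all probe sets kept. The receptors had ranges of 0.98 and 1.29 for the C5ar1 probe sets and of 1.01, 1.61 and 2.06 for the C3ar1 probe sets. The widest, C3ar1 1442082_at, stood at percentile 98.6. Probe sets of the same gene differed in this, with 0.60 for Cfp 1452279_at but 0.99 for Cfp 1447537_at, and 0.41 for C1qb 1417063_at but 0.75 for 1434366_x_at and 0.76 for 1437726_x_at.

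Among the non-arthritic mice C1qc, C1qa and C1qb 1417063_at varied little, while the other C1qb probe sets varied more. C1qc (1449401_at) measured 12.60, 12.61, 12.60 and 12.61 in the young non-arthritic mice and 12.62 and 12.62 in the old non-arthritic mice. In the arthritic mice it measured 12.75 and 12.90 when young and 12.60 and 12.74 when old. Thus 3 of 4 arthritic mice lay above all 6 non-arthritic mice and the remaining one, old arthritic replicate 1, lay below them.

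C1qa (1417381_at) measured 13.12 and 13.24 in the young arthritic mice and 13.06, 13.06, 13.03 and 13.10 in the young non-arthritic mice. In the old mice it measured 13.00 and 13.06 with arthritis and 13.08 and 13.07 without. The young arthritic mice thus lay above the young non-arthritic mice, and the old arthritic mice just below the old non-arthritic mice. C1qb (1417063_at) measured 13.33 and 13.42 in the young arthritic mice and 13.19, 13.13, 13.11 and 13.10 in the young non-arthritic mice. In the old mice it measured 13.01 and 13.22 with arthritis and 13.24 and 13.15 without, and these overlapped. The other C1qb probe sets, whose names end in _x_at because their probes can match other sequences too, overlapped between arthritic and non-arthritic mice at both ages. Their values were 10.93 to 11.67 for 1434366_x_at and 11.75 to 12.51 for 1437726_x_at.

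The question of the comparison in young mice was how the spleens of arthritic and non-arthritic animals differ. By limma, C1qb 1417063_at had a log2 difference of 0.24 (standard error 0.08, 95% interval 0.05 to 0.43, adjusted p = 0.201) and C1qc one of 0.22 (standard error 0.08, interval 0.04 to 0.39, adjusted p = 0.209). C1qa had 0.12 (standard error 0.07, interval -0.04 to 0.28, adjusted p = 0.387). None of the 13 probe sets passed the threshold of 0.05, against 0.311% of all probe sets. At an unadjusted p under 0.05 there were 3, with C1qb 1417063_at and C1qc higher and Cfp 1447537_at lower, which is 3 of 13 against 18.2% of all probe sets. The 2 arthritic and 4 non-arthritic mice did not overlap in 4 of 13 probe sets, higher in C1qa, C1qb 1417063_at and C1qc and lower in Cfp 1447537_at, against 31.9% of all probe sets. These C1q differences moved with the scaling. When the arrays were quantile normalized again they became 0.08 for C1qb 1417063_at, 0.06 for C1qc and -0.05 for C1qa, while the median over all probe sets went from 0.0900 to 0.0009. Without young arthritic replicate 2 they were 0.20, 0.14 and 0.06.

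In old mice the intervals of all 3 C1q chains spanned 0. The log2 differences were -0.08 for C1qb 1417063_at (95% interval -0.30 to 0.14), -0.04 for C1qa (-0.23 to 0.15) and 0.05 for C1qc (-0.15 to 0.25). The change of the arthritis effect from young to old mice was tested in the same fit as old minus young. It was -0.33 for C1qb 1417063_at (standard error 0.13, adjusted p = 0.9997), -0.16 for C1qa and -0.17 for C1qc. None of the 13 probe sets passed the threshold for this difference in limma, as in 0% of all probe sets. At an unadjusted p under 0.05 there was 1 of 13, C1qb 1417063_at, against 3.1% of all probe sets.

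The 3 chains moved together over the mice. With the probe set of highest mean standing for each gene, 21 pairs of genes were correlated across the 10 mice, and 3 passed an adjusted p of 0.05 by a two-sided permutation test with 100000 resamples. They were the 3 pairs of C1q chains. Pearson's r was 0.862 for C1qa and C1qb (permutation p = 0.00096, adjusted p = 0.0175), 0.866 for C1qa and C1qc (permutation p = 0.0052, adjusted p = 0.0364) and 0.854 for C1qb and C1qc (permutation p = 0.00167, adjusted p = 0.0175).
Spearman's rho was 0.685 (permutation p = 0.0353, adjusted 0.247), 0.879 (permutation p = 0.0017, adjusted 0.0357) and 0.83 (permutation p = 0.00489, adjusted 0.0513) for the same pairs. Without the 2 mice farthest from the median, r was 0.575, 0.513 and 0.738. After each group's mean had been subtracted, r was 0.576, 0.888 and 0.757. In a group of 2 mice the deviations are equal and opposite. Values of r within groups, here and below, thus rest on fewer independent values than there are mice. The relation rested in part on single mice, since no pair passed without old arthritic replicate 1, without young arthritic replicate 1 or without young arthritic replicate 2. With the mean of each gene's probe sets in place of the brightest one, 0 of 21 pairs passed. With the arrays centred on their median the same C1q pairs passed. The correlations were not run with the arrays quantile normalized again, the setting in which the C1q differences moved.

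The mean of the 3 C1q genes was 13.07 and 13.19 in the young arthritic mice and 12.91 to 12.95 in the young non-arthritic mice. In the old mice it was 12.87 and 13.01 with arthritis and 12.98 and 12.95 without. The pattern over the 10 mice was most like that of Tmed10 (r = 0.961), Vwa5a (r = 0.959), Rilp (r = 0.958), Zc3h6 (r = 0.950) and Cpne8 (r = 0.943) among 11863 other named genes. Tmed10 is a cargo receptor of the early secretory pathway, and Rilp binds the lysosomal Rab7. These likenesses are a description over 10 mice that share the same groups and were given no test.

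Among the alternative pathway components, factor B did not separate the groups. Cfb (1417314_at) measured 10.03 and 10.13 in the old arthritic mice, 10.18 and 10.13 in the old non-arthritic mice and 10.29 and 10.01 in the young arthritic mice. The young non-arthritic mice measured 10.17, 10.23, 9.98 and 10.13, so arthritic and non-arthritic mice overlapped at both ages, in old mice at 10.13. At equal age arthritic minus non-arthritic was -0.04 with a 95% interval of -0.25 to 0.18 on the log2 scale (limma, adjusted p = 0.842).

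Properdin is stored by neutrophils and made by macrophages and T cells, and its 2 probe sets gave different pictures. Cfp 1452279_at measured 12.18 and 11.80 in the old arthritic mice against 12.34 and 12.24 in the old non-arthritic mice. The young mice measured 12.24 and 12.40 with arthritis and 12.28, 12.35, 12.21 and 12.20 without. The old arthritic mice were thus lowest, and the young mice overlapped. The difference in old mice was -0.30 (standard error 0.13, 95% interval -0.59 to -0.01, adjusted p = 0.26 in limma), which was -0.49 without old arthritic replicate 1 and -0.11 without old arthritic replicate 2, and at equal age it was -0.03. Cfp 1447537_at measured 7.49 to 7.85 in the 4 arthritic mice and 7.84 to 8.48 in the 6 non-arthritic mice, so only the highest arthritic and the lowest non-arthritic mouse overlapped. Its differences were -0.49 in young mice (standard error 0.21, adjusted p = 0.26), -0.45 in old mice (standard error 0.24, adjusted p = 0.34) and -0.38 at equal age (standard error 0.18, adjusted p = 0.239). In old mice it became -0.74 when old non-arthritic replicate 1 was left out, -0.16 when replicate 2 of that group was left out and -0.27 without old arthritic replicate 2. Over the 10 mice the 2 Cfp probe sets had r = 0.257 (permutation p = 0.507) and rho = -0.042 (permutation p = 0.917). The other 7 pairs of probe sets of 1 gene had r of 0.692 to 0.948.

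C5ar1, the receptor for C5a on neutrophils and macrophages, was highest in an arthritic mouse at both ages. C5ar1 1422190_at measured 8.66 and 9.16 in the old arthritic mice and 8.29 and 8.19 in the old non-arthritic mice. The young mice measured 8.43 and 9.00 with arthritis and 8.59, 8.39, 8.52 and 8.19 without. The old groups did not overlap and the young groups did. The second probe set, 1439902_at, ran with it (r = 0.915), at 7.66 and 8.43 against 7.27 and 7.47 in old mice, and at 7.65 and 8.55 against 7.30 to 8.02 in young mice.

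In old mice the difference for C5ar1 1422190_at was 0.67 on the log2 scale, or 1.59-fold (standard error 0.22, 95% interval 0.17 to 1.17, adjusted p = 0.168 in limma). It was 0.92 without old arthritic replicate 1 and 0.41 without old arthritic replicate 2. In young mice it was 0.29 (standard error 0.19, adjusted p = 0.429), 0.58 without young arthritic replicate 1 and 0.01 without young arthritic replicate 2. For 1439902_at the difference was 0.67 in old mice (standard error 0.35, adjusted p = 0.328), 1.06 without old arthritic replicate 1 and 0.29 without old arthritic replicate 2. In young mice it was 0.36 (standard error 0.30, adjusted p = 0.542), 0.81 without young arthritic replicate 1 and -0.09 without young arthritic replicate 2. None of the 13 complement probe sets passed the threshold in old mice, against 0.0714% of all probe sets. At an unadjusted p under 0.05 there were 2 of 13, C5ar1 1422190_at higher and Cfp 1452279_at lower, against 18.6% of all probe sets. The 2 arthritic and 2 non-arthritic old mice did not overlap in 6 of 13 probe sets, against 51.5% of all probe sets. Both C5ar1 probe sets, C3ar1 1419482_at and C3ar1 1442082_at were higher, and C1qa and Cfp 1452279_at were lower. For all 4 arthritic against all 6 non-arthritic mice, 0 of 13 did not overlap, against 12.1% of all probe sets.

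The question of how arthritic mice differ from non-arthritic mice of susceptible age was met by setting the 4 arthritic mice, aged 4 months or more, against the 2 old non-arthritic mice. C5ar1 1422190_at differed by 0.57 (standard error 0.19, adjusted p = 0.141), C5ar1 1439902_at by 0.70 (standard error 0.30, adjusted p = 0.219) and C3ar1 1442082_at by 1.03 (standard error 0.41, adjusted p = 0.191). These were the 3 of 13 with an unadjusted p under 0.05, all higher in arthritic mice, against 21.7% of all probe sets. By limma 0 of 13 passed the threshold, against 0.576% of all probe sets.

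C3ar1, the receptor for C3a, had the 2 widest ranges of the 13 probe sets, in 1442082_at and 1419483_at, and its highest values were in young mice with and without arthritis. C3ar1 1419482_at measured 7.84 and 7.42 in the young arthritic mice and 7.02, 6.95, 7.85 and 7.65 in the young non-arthritic mice. In the old mice it measured 7.17 and 7.58 with arthritis and 6.84 and 7.06 without. C3ar1 1442082_at measured 8.16 and 7.46 in the young arthritic mice, 6.56, 6.42, 7.99 and 7.16 in the young non-arthritic mice, 6.68 and 7.14 in the old arthritic mice and 6.10 and 6.56 in the old non-arthritic mice. The old non-arthritic mice were at the low end of both probe sets, and the young groups overlapped. At the labelled age of 5 months, the 1 arthritic mouse measured 8.16 and the 1 non-arthritic mouse 6.56 in 1442082_at. The third probe set, 1419483_at, ran from 6.71 to 8.32, and pairs of the 3 correlated at r of 0.902 to 0.948. The probe set 1442082_at lay above the array median in only 5 of 10 arrays.

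**Figure D2:**
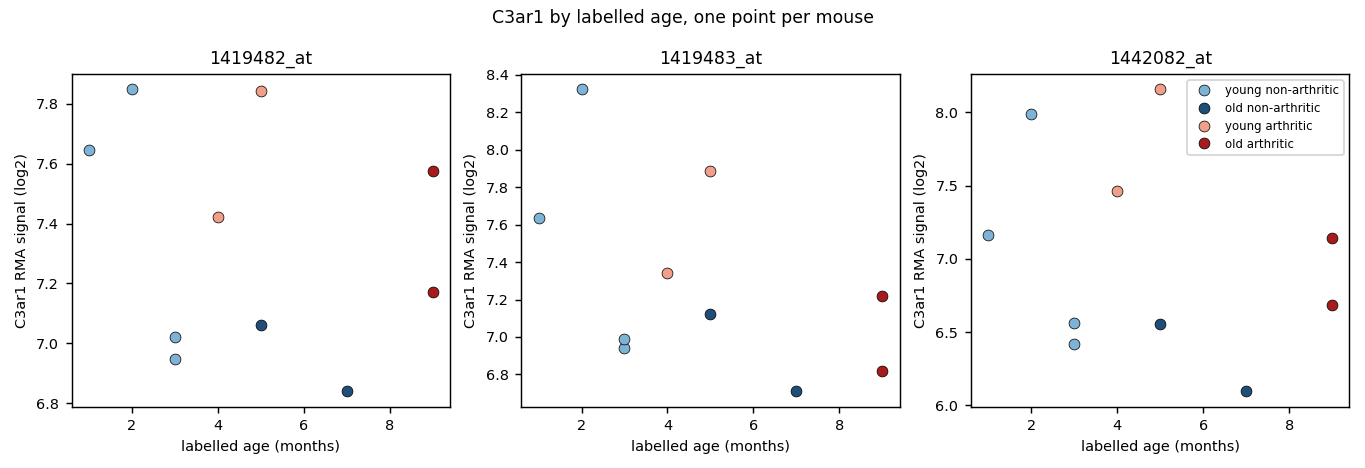
RMA signal (y-axis, log2) of the 3 C3ar1 probe sets against labelled age (x-axis, months), 1 panel per probe set and 1 point per mouse, coloured by group. In 1442082_at the mice aged 7 and 9 months lie at 7.14 or below and the highest mouse, at 8.16, is a young arthritic mouse of 5 months. The mice aged 3 months, at 6.56 and 6.42, lie below those aged 9 months, and the mouse aged 2 months lies at 7.99.

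At equal age, the fit estimated arthritic mice 1.21 higher than non-arthritic mice in C3ar1 1442082_at, or 2.32-fold (standard error 0.33, 95% interval 0.48 to 1.95, adjusted p = 0.0786 in limma). The other C3ar1 probe sets had differences of 0.59 (standard error 0.22, adjusted p = 0.147) and 0.53 (standard error 0.30, adjusted p = 0.309). C5ar1 had 0.44 (standard error 0.18, adjusted p = 0.191) and 0.61 (standard error 0.28, adjusted p = 0.219). Thus both receptors were estimated higher in every probe set, yet none of the 13 probe sets passed the threshold, against 2.26% of all probe sets. These estimates depend on the fitted age slope, since only the labelled age of 5 months holds mice of both states. As measured, the arthritic and non-arthritic mice averaged 7.36 and 6.80 in C3ar1 1442082_at. They averaged 7.50 and 7.23 in C3ar1 1419482_at, and 7.32 and 7.29 in C3ar1 1419483_at. At an unadjusted p under 0.05 there were 4 of 13, against 22.9% of all probe sets. They were C3ar1 1419482_at, C3ar1 1442082_at, C5ar1 1422190_at and C1qc, all higher.
C3ar1 1442082_at crossed the threshold with all probe sets in the test (adjusted p = 0.0325), with array weights (adjusted p = 0.0209) and without young non-arthritic replicate 3 (1.28, adjusted p = 0.0388). Over all 10 mice left out in turn its adjusted p ran up to 0.290. Within each old group and within the young arthritic group, the arrays received equal weights. Such a weight cannot tell a poor array from mice that differ. C1qc had a difference of 0.19 at equal age (standard error 0.08, adjusted p = 0.178), which was 0.03 (adjusted p = 0.884) with the arrays quantile normalized again. C1qb 1417063_at had 0.14 and C1qa 0.10 as deposited, and -0.03 and -0.08 with the arrays quantile normalized again.

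**Figure D3:**
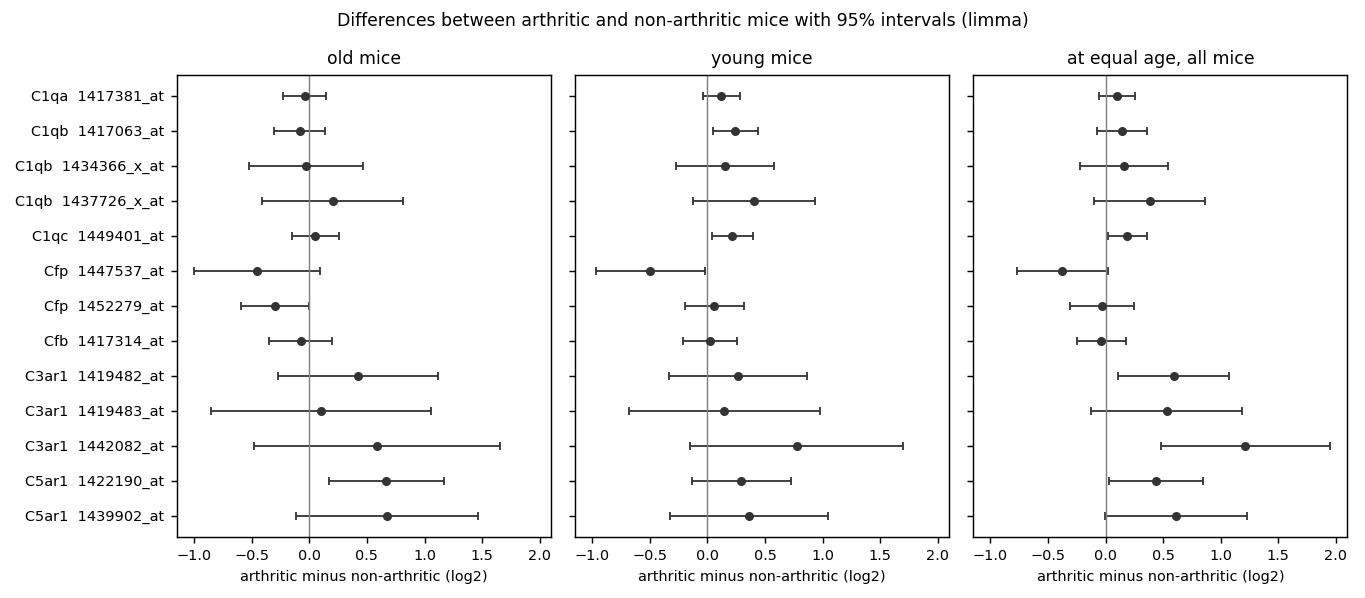
Log2 difference between arthritic and non-arthritic mice (x-axis) for the 13 complement probe sets (y-axis) among old mice, among young mice and over all mice at equal age, where points are limma estimates and bars their 95% intervals. At equal age all 5 receptor probe sets lie above 0, with the largest estimate of 1.21 in C3ar1 1442082_at, and the interval of C1qa spans -0.06 to 0.25.

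Age itself was examined in the non-arthritic mice and as a slope over all mice. Between the 2 old and 4 young non-arthritic mice, 0 of 13 probe sets passed the threshold, against 0% of all probe sets, and at an unadjusted p under 0.05 there were 0 of 13 against 3.19%. C3ar1 1419482_at differed by -0.42 (95% interval -1.02 to 0.18) and C3ar1 1442082_at by -0.71 (-1.63 to 0.22), and without young non-arthritic replicate 3 these became -0.25 and -0.39. The C1q chains differed by 0.01 for C1qa (-0.15 to 0.17), 0.01 for C1qc (-0.16 to 0.19) and 0.07 for C1qb 1417063_at (-0.13 to 0.26). At equal arthritis status, the slope per month was -0.20 in C3ar1 1442082_at (standard error 0.06), -0.15 in C3ar1 1419483_at (standard error 0.05) and -0.10 in C3ar1 1419482_at (standard error 0.04). These were the 3 of 13 probe sets with an unadjusted p under 0.05, against 9.98% of all probe sets. By limma 0 of 13 passed the adjusted threshold, against 0.0042% of all probe sets, with the smallest adjusted p at 0.466.

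The complement probe sets as a group had a median difference of 0.22 in young mice against 0.09 over all probe sets, of 0.05 in old mice against 0.05, and of 0.19 at equal age against 0.09. For mice aged 4 months or more it was 0.13 against 0.08, and for old against young non-arthritic mice -0.08 against -0.02. The median change of the arthritis effect from young to old mice was -0.16 against -0.03. These medians count each probe set of a gene separately. The complement medians of 0.22, 0.05, 0.19 and 0.13 were each the value of C1qc. For C1qc the differences in young mice and at equal age shrank with the arrays quantile normalized again. Its difference then turned to -0.06 in old mice and to -0.02 for mice aged 4 months or more.

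The receptors and C1q were also set beside marker lists for cell types of the spleen, a step added after their values had been seen. Over 63 pairs of a complement gene and a list, 0 passed an adjusted p of 0.05 by the permutation test. For C5ar1 and the neutrophil list, Pearson's r was 0.856 over 10 mice (permutation p = 0.0016, adjusted 0.0788). Spearman's rho was 0.903 (permutation p = 0.00086, adjusted 0.0542), r without the 2 farthest mice was 0.817 and r within groups 0.886. The neutrophil list averaged 12.38 and 12.82 in the old arthritic mice and 11.42 and 11.57 in the old non-arthritic mice. It averaged 12.35 and 13.03 in the young arthritic mice and 11.78 to 12.57 in the young non-arthritic mice. The mice with the highest C5ar1, old arthritic replicate 2 and young arthritic replicate 2, thus had the highest neutrophil averages. Of 14 measured neutrophil markers, 1 passed the threshold in arthritic mice against old non-arthritic mice aged 4 months or more, against 0.576% of all probe sets, and none in the other comparisons. With the mesothelium list C5ar1 had r = -0.748 (permutation p = 0.0131, adjusted 0.118) and rho = -0.636 (permutation p = 0.0527, adjusted 0.415), and r = -0.798 within groups. The part of neutrophils or of mesothelium in the C5ar1 values was not tested. Cfp had r = 0.651 with the T cell list (permutation p = 0.0185, adjusted 0.146) and r = 0.652 with the macrophage list (permutation p = 0.0284, adjusted 0.191).

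C3ar1 and the stroma list, genes of fibroblasts and vessel walls, were both spread widely in the young non-arthritic mice. The list averaged 11.05 and 10.71 in the young arthritic mice and 10.48, 10.76, 11.26 and 11.23 in the young non-arthritic mice. It averaged 10.31 and 10.57 in the old arthritic mice and 10.57 and 10.77 in the old non-arthritic mice. Across the mice r was 0.697 (permutation p = 0.0303, adjusted 0.191) and rho 0.576 (permutation p = 0.0873, adjusted 0.458), with r = 0.459 without the 2 farthest mice and 0.935 within groups. With the macrophage list C3ar1 had r = -0.017 (permutation p = 0.962, adjusted 0.978) and r = -0.185 within groups. With the neutrophil list it had r = 0.438 (permutation p = 0.199, adjusted 0.627) and r = -0.126 within groups. The part of stromal tissue in the C3ar1 values was not tested.

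C1qa and the macrophage list had r = 0.782 (permutation p = 0.00261, adjusted 0.0788) and rho = 0.806 (permutation p = 0.00711, adjusted 0.114). Without the 2 farthest mice r was 0.512, and within groups it was 0.526. For C1qb r was 0.769 (permutation p = 0.00975, adjusted 0.109) and rho 0.624 (permutation p = 0.0596, adjusted 0.416), with r = 0.446 without the 2 farthest mice and 0.441 within groups. For C1qc r was 0.528 (permutation p = 0.108, adjusted 0.486) and rho 0.612 (permutation p = 0.066, adjusted 0.416), with r = -0.276 without the 2 farthest mice and 0.444 within groups. Whether the chains differ in this was not tested. The macrophage list averaged 11.61 and 11.68 in the young arthritic mice and 11.49 to 11.54 in the young non-arthritic mice. It averaged 11.42 and 11.44 in the old arthritic mice and 11.66 and 11.53 in the old non-arthritic mice. The young arthritic mice thus lay above the young non-arthritic mice in both C1qa and the macrophage list, and the old arthritic mice below the old non-arthritic mice in both. The old groups were close in C1qa, at 13.06 against 13.07 for the nearest mice, and overlapped in C1qb 1417063_at and C1qc. Groups that did not overlap were seen in 31.9% of all probe sets in young mice and in 51.5% in old mice. The adipose tissue list, of which 4 of 7 genes were kept, had r = 0.715 with C1qc (permutation p = 0.00375, adjusted 0.0788) and rho = 0.879 (permutation p = 0.00179, adjusted 0.0564), and r = 0.656 without the 2 farthest mice and 0.532 within groups. With C1qa it had r = 0.682 (permutation p = 0.00659, adjusted 0.104) and rho = 0.806 (permutation p = 0.00725, adjusted 0.114), and r = 0.675 without the 2 farthest mice and 0.61 within groups. With C1qb it had r = 0.754 (permutation p = 0.0104, adjusted 0.109) and rho = 0.709 (permutation p = 0.0273, adjusted 0.267), and r = 0.663 without the 2 farthest mice and 0.623 within groups. Its average was 8.69 and 8.79 in the young arthritic mice against 7.72 to 8.38 in the young non-arthritic mice, and 7.85 and 8.73 against 8.72 and 8.10 in old mice. The part of either tissue in the C1q values was not tested.

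**Figure D4:**
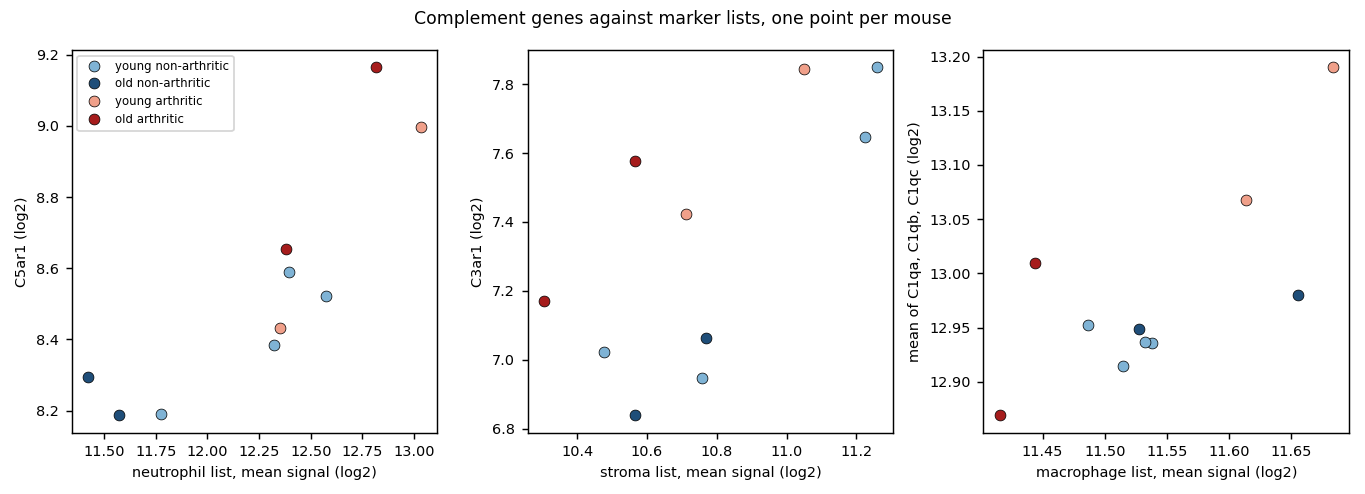
C5ar1 against the neutrophil list, C3ar1 against the stroma list and the mean of the 3 C1q genes against the macrophage list, each as mean log2 signal on both axes with 1 point per mouse, coloured by group. The 2 mice with the highest C5ar1, at 9.16 and 9.00, have the highest neutrophil averages, at 12.82 and 13.03.

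The rest of the complement system was read from a list of 45 genes, of which 36 had a probe set under their own symbol alone and 19 passed the filter with 30 probe sets. In the comparison at equal age 1 of 30 passed the threshold, higher in arthritic mice, against 2.26% of all probe sets, and none did in the other 6. At an unadjusted p under 0.05, 8 of 30 were higher and 0 lower at equal age, beside the 22.9% of all probe sets given above. In young mice there were 5 higher and 0 lower of 30, against 18.2% of all probe sets, and in old mice 3 higher and 2 lower, against 18.6%.

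For each role the gene of highest signal is described, a rule that only served to choose genes, with every probe set of it that was kept. Fcna, a macrophage ficolin that can start the lectin pathway, had -0.29 in old mice (standard error 0.10, adjusted p = 0.176) and -0.06 at equal age. It measured 12.89 and 12.96 in the old arthritic mice against 13.34 and 13.10 in the old non-arthritic mice, and 13.16 to 13.26 in all 6 young mice. The old arthritic mice were thus the lowest in Fcna. The other ficolin kept, Fcnb, which neutrophils and monocytes carry, was chosen after its values were seen, with 1.25 in old mice (standard error 0.50, adjusted p = 0.232) and 1.23 at equal age (standard error 0.43, adjusted p = 0.134). Of the terminal components only C6, a part of the membrane attack complex, was kept, with 0.49 in young mice (standard error 0.12, adjusted p = 0.123), 0.24 at equal age and a change from young to old mice of -0.56 (standard error 0.19, adjusted p = 0.9997). Clu, a soluble protein that holds back the terminal complex, had 0.06 to 0.19 at equal age in 4 probe sets, with 0.174 as the smallest adjusted p. Cr1l (Crry), the rodent membrane regulator of C3 cleavage, had 0.04 and -0.58 at equal age in its 2 probe sets, with adjusted p of 0.784 and 0.556. C1qbp, a mitochondrial protein that binds C1q, had 0.19 (standard error 0.07, adjusted p = 0.169) and 0.05.

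Of the receptors on the list, 7 of 8 were kept and Cd93 was the gene that passed. Cd93, once described as a C1q receptor and found on myeloid cells and endothelium, measured 10.80 and 10.36 in the young arthritic and 10.30 and 10.44 in the old arthritic mice in 1456046_at. It measured 10.01, 10.11, 10.21 and 10.23 in the young non-arthritic mice and 9.97 and 9.99 in the old non-arthritic mice, so all 4 arthritic mice lay above all 6 non-arthritic mice, a separation in one direction or the other that 12.1% of all probe sets had. At equal age the difference was 0.52 (standard error 0.11, 95% interval 0.27 to 0.77, adjusted p = 0.0486 in limma). The call was lost in 12 of 17 alternatives, among them quantile normalization again (0.38, adjusted p = 0.173). Leaving out old arthritic replicate 1, or young non-arthritic replicate 4, kept it, and leaving out any of the other 8 mice lost it, with an adjusted p up to 0.221. The other kept Cd93 probe set had 0.41 (standard error 0.14, adjusted p = 0.136).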

How the data were processed

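Spleen RNA of 10 mice was hybridized to Affymetrix arrays, 1 per mouse. Each value that the authors deposited is a log2 signal of a probe set from RMA, as the submitters' processing notes name it, a method that corrects background, brings arrays to 1 distribution and summarises the probes (version not given in the sources used here). Control rows, 64 of 45101, were left out. Probe sets were named from the platform's annotation, where 34945 carry 1 symbol, 932 several and 9160 none. Those above their array's median in at least 2 arrays were tested, with 11870 named genes.

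Linear models in limma 3.58.1 (R 4.3.3) were run over all probe sets kept, and p-values adjusted by Benjamini-Hochberg with 0.05 as threshold. One fit had a mean for each of 4 groups and shared 1 estimate of the spread, and another had arthritis status and age in months. Differences are on the log2 scale, and the p-values cover the variation among these mice, which the labels call biological replicates. The number of arrays limits the precision. The fit was tested on simulated data. Permutation tests used 100000 resamples in Python 3.11.15, with ranks from scipy 1.17.1, and figures matplotlib 3.10.9. In correlations each gene was represented by its brightest kept probe set. The complement genes, the pathway and marker lists and the tests were chosen with earlier results of these data known. All 8 genes were named with their probe sets, and from the pathway list those with a call and the brightest of each role. Alternatives changed the filter, the normalization, the moderation of the spread, array weights, a block for the replicate number and the groups in a fit, or left out 1 array at a time. A search for genes like C3 was not run, since C3 was not analysed here. The paper does not state how the arrays were tested.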

Additional observations from a re-analysis of the deposited data

Results flagged for a closer look

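In the young non-arthritic mice, C1qb 1437726_x_at had 1 mouse far from the others. Replicate 1 measured 12.49 and the other 3 mice 11.77, 11.80 and 11.84 on the log2 scale. The gap to the nearest mouse was 0.9044 of the whole range of the group. Dixon's test was made on 13 values, of which 1 was found, and chance gives about 1 in 20. In C1qb 1417063_at the same mouse measured 13.19, against 13.10 to 13.13 in the other young non-arthritic mice. It was also the highest of that group in C1qb 1434366_x_at, at 11.67 against 11.16 to 11.31.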

How the results depend on the processing

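The count of complement probe sets past the threshold was 0 in all 7 comparisons, and it became 1 at equal age with no filter and with array weights, C3ar1 1442082_at in both. Leaving out each mouse gave 0 to 1 at equal age and 0 in the other 6 comparisons, with the remaining alternatives at 0. With the replicate number as a replicate block the count was 0 in every comparison. The numbers were not taken as pairs, since deviations of arrays of the same number correlated at -0.525 to 0.356, and the block moved the Cd93 call at equal age to an adjusted p of 0.102. The count of correlated gene pairs was 3 and became 0 with the mean of each gene's probe sets, and ran from 0 to 3 with each mouse left out, an alternative added after the data had been seen. Of 702 other values for single probe sets, 663 moved by at most 1 standard error and stayed short of the threshold, 37 moved further and 2 crossed it. Of 910 values with a mouse left out, 864 moved by at most 1 standard error, 45 moved further and 1 crossed the threshold, C3ar1 1442082_at without young non-arthritic replicate 3. The cause of these changes was not tested. A sign turned without a call in 31 and 56 of them. At equal age 538 probe sets of the array passed in limma, 5475 with no filter, 265 with the stricter filter, 177 with quantile normalization again, 274 with centred arrays, 4146 with array weights, 29 with the block, and from 0 to 872 with a mouse left out. The small number of mice limits what could be detected.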
